A study of Rattus norvegicus with 12 samples.

Results

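Keratin genes that divide simple from stratified epithelium were followed through the uteri of ovariectomized rats fed casein or soy protein isolate, with and without estradiol. The 10 genes were taken by symbol: Krt7, Krt8, Krt18 and Krt19 as simple keratins, and Krt4, Krt5, Krt13, Krt14, Krt15 and Krt17 as stratified or basal keratins. Of these genes, 8 had values among the 16493 genes measured, and Krt5 and Krt7 were not analysed here. RNA sequencing was done on whole uteri of female Sprague-Dawley rats on postnatal day 65. All rats were ovariectomized on postnatal day 50, so every group lacked ovarian estrogens. The CAS group ate a semi-purified diet with casein as its protein and received vehicle (polyethyleneglycol) from a subcutaneous pump. The CAS-E2 group ate the same diet and received 17β-estradiol (E2) at 5 μg/kg/d from the pump. The SPI group ate the diet made with soy protein isolate and received vehicle, and the SPI-E2 group ate the soy diet and received the same E2 dose. Diets began on postnatal day 30 by the methods of the study, whose summary of the experiment gives a shorter feeding period. Each group had 3 libraries, each from a pool of RNA of 2 uteri, named here by group and replicate (CAS 1, SPI-E2 3). Errors are therefore those between pools.

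Keratins are the intermediate filaments of epithelial cells, and each filament pairs a type I with a type II chain. Simple epithelium, such as the single layer lining the uterine lumen and glands, uses Krt8 and Krt7 (type II) with Krt18 and Krt19 (type I). Stratified epithelium uses Krt5 with Krt14 and Krt15 in its basal layer, and Krt4 with Krt13 in the upper layers of moist surfaces such as the vagina. Krt17 belongs to basal cells and to skin appendages. The uterine epithelium depends on estrogen for its growth, and ovariectomy leaves it thin.

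The promoters of Krt8 and Krt18 are shown because these genes encode the partner chains of simple epithelium and lie close together on chromosome 7 in RefSeq's GRCr8 annotation, with 1 annotated gene between them. The promoter of Krt4 is shown as the stratified gene listed at 0 wherever E2 was not given. RefSeq's promoter table held 4 of the 10 genes (Krt4, Krt5, Krt8 and Krt18), and not Krt7, Krt13, Krt14, Krt15, Krt17 or Krt19. Each run below is the 250 bases before the RefSeq start, 5′ to 3′ on the gene's strand (GRCr8). Krt8 is at chr7:135010340-135010589 on the minus strand, Krt18 at chr7:135035918-135036167 on the plus strand and Krt4 at chr7:134930714-134930963 on the minus strand. Capitals mark TATAAA on both strands in Krt8, GGTCA and then GGGCGG in Krt18, and TGANTCA in Krt4.
Krt8: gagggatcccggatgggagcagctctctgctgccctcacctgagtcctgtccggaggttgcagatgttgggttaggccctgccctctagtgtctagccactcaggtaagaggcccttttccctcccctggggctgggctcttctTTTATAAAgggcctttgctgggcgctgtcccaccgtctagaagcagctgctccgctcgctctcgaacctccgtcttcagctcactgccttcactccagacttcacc
Krt18: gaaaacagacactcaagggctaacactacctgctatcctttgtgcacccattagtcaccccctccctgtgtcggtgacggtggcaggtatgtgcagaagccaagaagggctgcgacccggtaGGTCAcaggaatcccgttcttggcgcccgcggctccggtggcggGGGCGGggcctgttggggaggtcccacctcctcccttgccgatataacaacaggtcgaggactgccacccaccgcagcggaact
Krt4: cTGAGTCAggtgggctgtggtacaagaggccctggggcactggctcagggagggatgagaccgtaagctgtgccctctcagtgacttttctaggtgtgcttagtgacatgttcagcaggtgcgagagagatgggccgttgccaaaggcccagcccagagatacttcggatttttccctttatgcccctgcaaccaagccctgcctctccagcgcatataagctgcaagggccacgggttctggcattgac
The motifs were searched on both strands: TATAAA (the TATA box), GGGCGG (an Sp1-type GC box), TGANTCA (an AP-1 type site), GGTCA (a half-site for nuclear receptors) and GGTCANNNTGACC (the estrogen response element), which holds GGTCA within it. In Krt8, TATAAA lies 104 to 99 bases before the start, and its match on the other strand overlaps it. In Krt18, GGTCA lies 128 to 124 and GGGCGG 84 to 79 bases before the start, and in Krt4 TGANTCA lies 249 to 243 bases before it. The full estrogen response element was in none of the 4 keratin promoters held. Of 33469 rat promoters of that length, 12.93% held TATAAA, 30.47% GGGCGG, 6.34% TGANTCA, 35.42% GGTCA and 0.02% GGTCANNNTGACC. These matches are descriptions of the letters only.

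The values are FPKM, fragments per kilobase of transcript scaled to the mapped reads of a library, summed over the transcripts of a gene, and each library was scaled by the authors to between 6353210 and 9862180 mapped reads. Genes with at least 1 FPKM in at least 3 of the 12 libraries (10279 genes) entered a single limma fit of log2(FPKM + 1). A gene is called higher or lower here at an adjusted p under 0.05 with a fold change of 2 or more on that scale, which understates changes of low genes. The keratins tested were Krt8, Krt18, Krt19, Krt13, Krt14 and Krt15, since Krt4 and Krt17 stayed under 1 FPKM in every library. Libraries of the same group were pooled for sequencing, so that lane and group cannot be told apart. In whole uteri, fewer cells of a type and less RNA per cell cannot be told apart either.
Libraries SPI-E2 1, SPI-E2 3 and SPI 1 stood apart in ways that touch these genes. SPI-E2 1 had the lowest sum of 14 markers of uterine epithelium among the 6 E2 libraries, at 346 FPKM, against 482 to 780 FPKM in CAS-E2. SPI-E2 3 had the highest Krt13, Krt14, Krt15, Krt17 and Krt4 of all 12 libraries. SPI 1 had a summed level of 7 liver genes of 1690 FPKM, including 1119 FPKM of Alb (albumin), against 27.3 to 346 FPKM in the other 11 libraries. Liver cells also make Krt8 and Krt18.

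Simple keratins were abundant in every group. The stratified keratins were at a few reads without E2, as were Krt4 in every group and Krt14 and Krt17 in CAS-E2. Krt19 was the highest of the 8 keratins in all 4 groups, followed by Krt8 and Krt18. The ranges of Krt19 and Krt8 overlapped within each group, although Krt19 was the higher in each of the 12 libraries, by a ratio of FPKM of 1.00 to 1.62. Krt18 stood below the range of Krt8 in every group. Among the stratified keratins, the ranges of Krt13, Krt14, Krt15 and Krt17 overlapped in CAS and in SPI, and so did not set an order.
The files place Krt8 on chromosome 7 of rn4 (140713902 to 140721199, minus strand, 9 exons) and Krt4 on the same chromosome (140622632 to 140628079, minus strand, 9 exons). The type I genes Krt13 (89057240 to 89061150), Krt15 (89071916 to 89075732), Krt19 (89080953 to 89085670), Krt14 (89144357 to 89148415) and Krt17 (89185097 to 89189816) share a cluster on chromosome 10, all on the minus strand. The Krt19 row has 6 exons and each of the others in that cluster 8. The Krt18 row is different. It lies on chromosome 2 (80043196 to 80044560, plus strand) as 1 exon of 1365 bases, away from the multi-exon Krt8 and from the place of Krt18 in GRCr8. RefSeq lists 6 Krt18 pseudogenes and 1 Krt18-like gene in that build. How reads were shared between Krt18 and its copies was not tested, and every Krt18 value here is uncertain for that reason.

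Estradiol raised the simple keratins in casein-fed rats. Krt8, the type II chain of simple epithelium, measured 47.4, 42.2 and 41.4 FPKM in CAS 1 to 3 and 249.7, 299.8 and 413 FPKM in CAS-E2 1 to 3. The groups did not overlap, and the mean was 7.34-fold higher with E2 (43.7 ± 3.26 against 321 ± 83.4 FPKM, SD, n = 3 pools each). Krt19, a type I chain without a tail domain, measured 52.7, 44.9 and 54.7 FPKM in CAS and 365, 476 and 670 FPKM in CAS-E2. Every E2 pool was again above every CAS pool, and the means differed 9.92-fold (50.8 ± 5.14 against 504 ± 154 FPKM). The single-exon Krt18 row gave 20.8, 22.2 and 23.7 FPKM in CAS and 49.5, 48.9 and 83.5 FPKM in CAS-E2, a 2.73-fold difference of means (22.2 ± 1.44 against 60.6 ± 19.9 FPKM). Its smallest E2 value was still above all CAS pools, and CAS-E2 3 was the highest of the group for all 3 simple keratins.
The 3 simple keratins tested were all called higher, where 7.99% of the 10279 genes tested were. Pools without overlap in this direction were found for 23.9% of genes. The log2 fold change was 2.82 for Krt8 (SE 0.41, limma adjusted p = 0.00065), 3.25 for Krt19 (SE 0.43, adjusted p = 0.00038) and 1.36 for Krt18 (SE 0.39, adjusted p = 0.017). Without CAS-E2 3 the Krt18 value was 1.11 with an adjusted p of 0.067, which ended its call. Among all 16493 genes ranked by mean FPKM, Krt19 moved from place 428 in CAS to place 32 in CAS-E2, Krt8 from 521 to 75 and Krt18 from 1152 to 466.

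**Figure D1:**
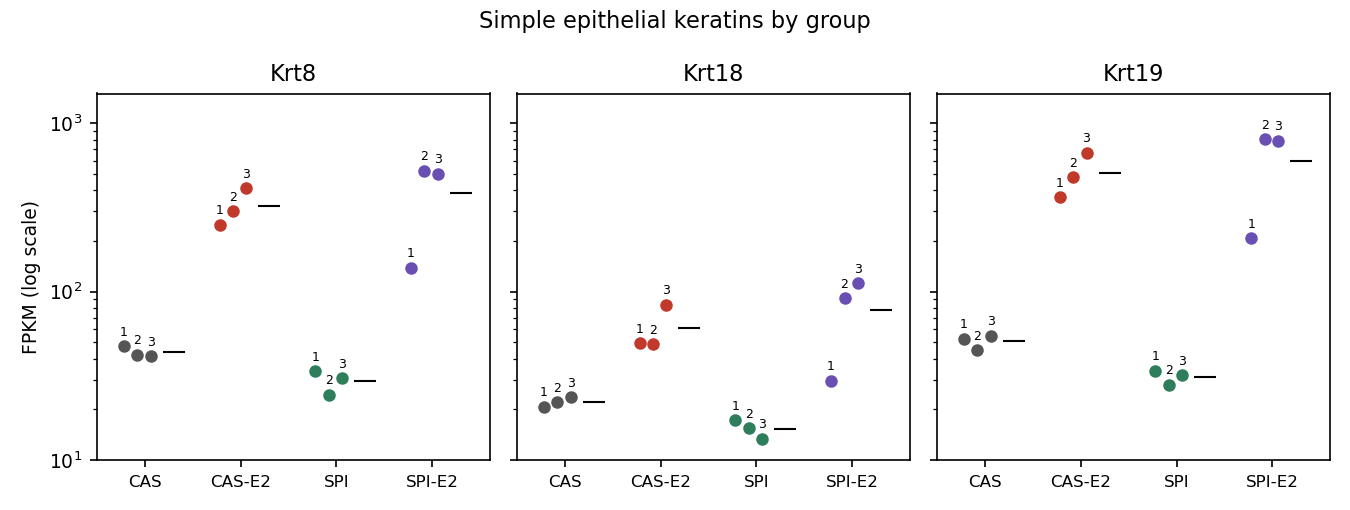
FPKM of Krt8, Krt18 and Krt19 on a logarithmic axis in the 4 groups. Each point is a pool with its replicate number and each bar is the mean of 3 pools. Both E2 groups lie above both groups without E2 for all 3 genes, and SPI-E2 1 is the lowest E2 pool (138 FPKM for Krt8, 207 FPKM for Krt19).

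Of the stratified keratins, Krt15 was called higher with E2 on casein and Krt14 was not. Krt15, a type I chain of basal cells, measured 0.0924, 0.0349 and 0.325 FPKM in CAS and 1.94, 2.52 and 2.94 FPKM in CAS-E2. The CAS values correspond to 0.6 to 3.4 reads and the CAS-E2 values to 23.4 to 38.2 reads, as implied by coverage, exon length and read length. The groups did not overlap. Its log2 fold change was 1.59 (SE 0.31, limma adjusted p = 0.0028). Krt13, the type I chain of upper layers of moist stratified epithelium, measured 0.362, 0.0910 and 0.282 FPKM in CAS and 1.79, 2.65 and 1.19 FPKM in CAS-E2. The pools did not overlap, but the difference of 1.18 on the log2 scale (SE 0.54, limma adjusted p = 0.0998) did not pass the test. It passed under 5 of 22 alternatives, among them leaving out SPI-E2 3 (adjusted p = 0.019) or SPI-E2 1 (adjusted p = 0.012), neither of which is in this comparison but both of which enter the shared estimate of spread.
Krt14, the partner of Krt5 in basal cells, measured 0.598, 0.0404 and 0.345 FPKM in CAS and 0.356, 0.131 and 0.470 FPKM in CAS-E2. The pools overlapped, and the log2 fold change was 0.00 with a 95% interval of -0.96 to 0.96. Krt17 overlapped as well, at 0.163, 0.117 and 0.392 FPKM in CAS and 0.185, 0.210 and 0.226 FPKM in CAS-E2. Krt4, the partner of Krt13, was listed at 0 in each CAS pool, while CAS-E2 1 to 3 had 0.0975, 0.0775 and 0.157 FPKM, which is 1.1 to 1.7 reads. Krt13, Krt14 and Krt15 passed the filter on low values through E2 libraries alone, so their number of calls says nothing about the class.

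In soy-fed rats E2 was followed by higher simple keratins too, with a wider spread between pools. Krt8 measured 33.8, 24.4 and 30.7 FPKM in SPI 1 to 3 and 138, 523 and 499.9 FPKM in SPI-E2 1 to 3. All E2 pools were above all SPI pools, and the mean was 13.1-fold higher (29.6 ± 4.79 against 387 ± 216 FPKM, SD, n = 3 each). Krt19 measured 34.0, 28.0 and 31.9 FPKM in SPI and 207, 802 and 789 FPKM in SPI-E2, a 19.1-fold difference of means. Krt18 measured 17.2, 15.5 and 13.4 FPKM in SPI and 29.6, 91.1 and 112 FPKM in SPI-E2, a 5.04-fold difference. SPI-E2 1 was the lowest E2 pool for each of these genes and lay below the 3 CAS-E2 pools.
The 3 simple keratins were called higher, where 8.39% of genes tested were, and 30.1% of genes had SPI-E2 pools above all SPI pools. The log2 fold change was 3.45 for Krt8 (SE 0.41, limma adjusted p = 0.00034), 3.98 for Krt19 (SE 0.43, adjusted p = 0.00019) and 2.07 for Krt18 (SE 0.39, adjusted p = 0.0036). Without SPI-E2 1 the values were 4.08, 4.63 and 2.65, and without SPI 1, the library with liver genes, 3.55, 4.04 and 2.15. Krt19 moved from place 676 to place 29 among all genes, Krt8 from 711 to 55 and Krt18 from 1514 to 344.

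Krt14 and Krt15 were both called higher with E2 on soy. Krt15 measured 0.0905, 0.217 and 0.142 FPKM in SPI and 3.90, 9.90 and 13.7 FPKM in SPI-E2, or 1.1 to 3.4 reads against 47.8 to 159.5 reads. No SPI-E2 pool came near the SPI range, and the log2 fold change was 3.01 (SE 0.31, limma adjusted p = 0.00017). Krt14 measured 0.105, 0.126 and 0.165 FPKM in SPI and 1.18, 1.80 and 9.30 FPKM in SPI-E2, or 1.2 to 2.3 reads against 12.8 to 93.3 reads. The groups were separate, and SPI-E2 3 was far above the rest of its group. Krt14 reached 1 FPKM in the 3 SPI-E2 libraries alone, so the filter on low values fixed this separation and favored its call. Krt15 passed that filter through E2 libraries alone, which favored higher values with E2. The log2 fold change of Krt14 was 1.81 (SE 0.44, adjusted p = 0.011) and without SPI-E2 3 it was 1.13 (adjusted p = 0.011). That fit kept the filter of all 12 libraries, which Krt14 would not have passed without SPI-E2 3. Its call ended when only these 2 groups were compared (adjusted p = 0.062).
Krt13 was called on soy by a narrow margin, and it too passed the filter on low values through E2 libraries alone. It measured 0.591, 0.0943 and 0.278 FPKM in SPI and 0.363, 2.95 and 9.65 FPKM in SPI-E2, so SPI-E2 1 lay within the SPI range. Its log2 fold change of 1.56 (SE 0.54, limma adjusted p = 0.049) passed the test and missed it under 16 of 22 alternatives, with 0.83 (adjusted p = 0.16) without SPI-E2 3. Krt17 was not tested at 0.101, 0.0403 and 0.238 FPKM in SPI and 0.621, 0.473 and 0.706 FPKM in SPI-E2, which is 0.6 to 3.5 against 6.9 to 7.3 reads. The Krt17 pools did not overlap, at depths of a few reads. Krt4 was listed at 0 in the SPI pools and in SPI-E2 1, and at 0.109 and 0.446 FPKM in SPI-E2 2 and 3.

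**Figure D2:**
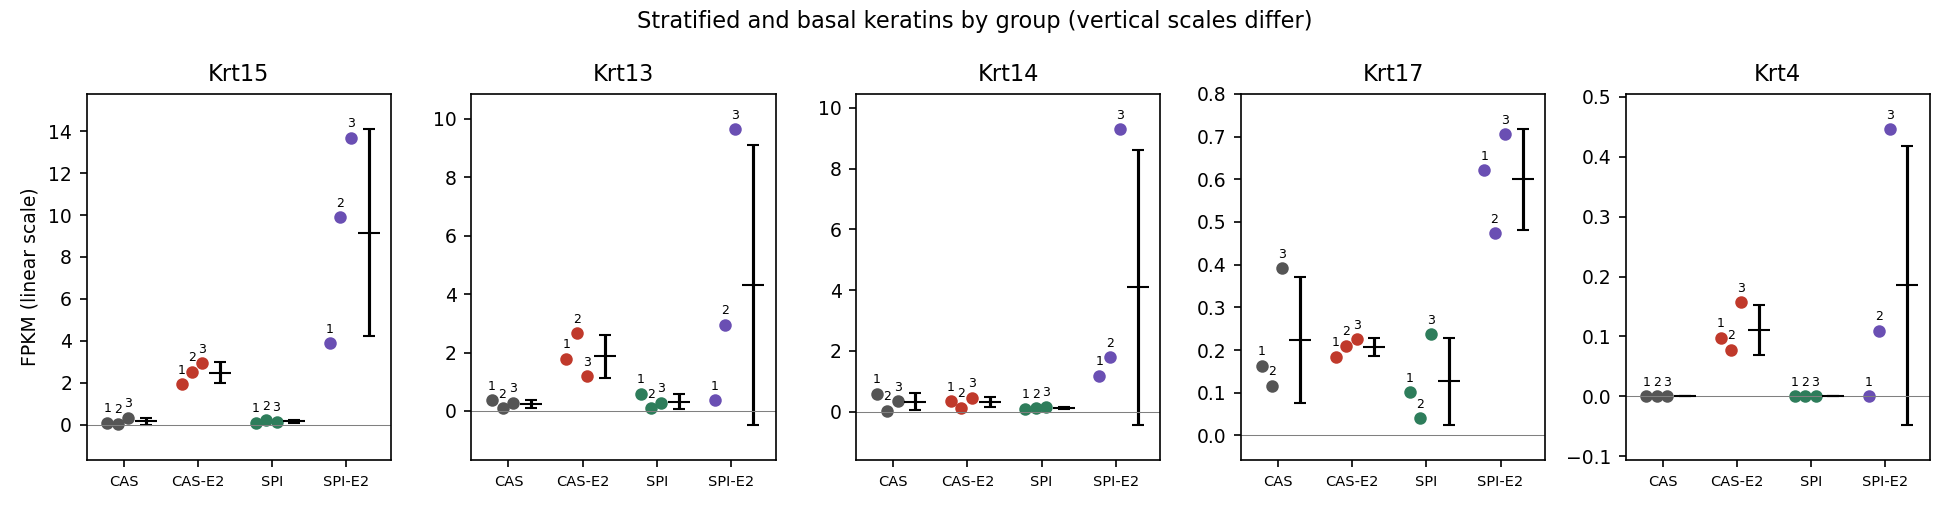
FPKM of the 5 stratified or basal keratins on linear axes of different heights. Points are pools with their replicate number, and the bar with whiskers is the mean ± SD of 3 pools. Krt15 separates the E2 groups from the others, Krt14 passes 1 FPKM in SPI-E2 alone, and SPI-E2 3 is the highest pool for every gene (9.65 FPKM for Krt13, 9.30 FPKM for Krt14).

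Against the casein control without E2, the combination of soy and E2 gave higher values for every keratin tested, in a comparison that shares its CAS libraries with that of E2 on casein. Krt8 had a log2 fold change of 2.90 (SE 0.41, limma adjusted p = 0.00095), Krt19 of 3.30 (SE 0.43, adjusted p = 0.00053) and Krt18 of 1.56 (SE 0.39, adjusted p = 0.013). All 3 simple keratins were called, beside 6.84% of genes tested, and 19.3% of genes had SPI-E2 pools above all CAS pools. Krt15 differed by 3.01 (SE 0.31, adjusted p = 0.00016), Krt14 by 1.61 (SE 0.44, adjusted p = 0.019) and Krt13 by 1.64 (SE 0.54, adjusted p = 0.039). Krt15 and Krt13 passed the filter on low values through E2 libraries alone, and Krt14 through SPI-E2 libraries alone. The filter thus favored higher values of these genes in SPI-E2, and their calls say nothing about the class. Without SPI-E2 3 the calls of Krt18 (1.19, adjusted p = 0.063), Krt13 (0.90, adjusted p = 0.14) and Krt14 (0.92, under the 2-fold limit) ended, which left 3 of 6. The call of Krt18 also ended without SPI-E2 2 (1.34, adjusted p = 0.056), and that of Krt14 without CAS 2 (1.44, adjusted p = 0.071) or CAS 3 (1.63, adjusted p = 0.052), or when only the 2 groups were compared. The call of Krt13 ended under 10 of 22 alternatives.

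Soy without E2 gave lower simple keratin values in every pool, and none of these differences passed the test. Set beside the CAS values above, the highest SPI pool reached 33.8 FPKM for Krt8, 17.2 FPKM for Krt18 and 34.0 FPKM for Krt19. The lowest CAS pool had 41.4, 20.8 and 44.9 FPKM. The log2 fold change was -0.55 for Krt8 (SE 0.41, limma adjusted p = 0.56), -0.51 for Krt18 (SE 0.39, adjusted p = 0.57) and -0.68 for Krt19 (SE 0.43, adjusted p = 0.49). The 95% interval for Krt8 ran from -1.45 to 0.34, which includes a fall of over 2-fold and no change. Such a separation of pools was common, since 30.8% of genes tested had all SPI pools below all CAS pools.
The median log2 fold change over all genes tested was -0.16 in this comparison and -0.01 after median-ratio scaling of the libraries. After that scaling the separation remained for all 3 simple keratins and for 11.3% of genes, and Krt8 differed by -0.36, Krt18 by -0.32 and Krt19 by -0.49. Leaving out SPI 1 gave -0.65, -0.59 and -0.74. Among all genes tested, 0 were called higher and 2 lower (0.0195%) by limma, while 83 were higher and 1236 lower at an unadjusted p under 0.05. The stratified keratins overlapped between SPI and CAS, with log2 fold changes of 0.07 for Krt13, -0.21 for Krt14 and 0.01 for Krt15.

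Under E2 the pools of the diets did not overlap for Krt14, Krt15 and Krt17 but did for the simple keratins, and no keratin passed the test. Krt8 differed by 0.08 on the log2 scale between SPI-E2 and CAS-E2 (95% interval -0.82 to 0.97), Krt18 by 0.19 (-0.66 to 1.05) and Krt19 by 0.06 (-0.87 to 0.99). Their pools overlapped, and differences of nearly 2-fold either way lie within these intervals. Krt15 was at 3.90 to 13.7 FPKM in SPI-E2 and 1.94 to 2.94 FPKM in CAS-E2, and Krt14 at 1.18 to 9.30 against 0.131 to 0.470 FPKM. Krt17 was at 0.473 to 0.706 against 0.185 to 0.226 FPKM. For these 3 genes every SPI-E2 pool was above every CAS-E2 pool. Among genes tested this held for 4.47%, a share that does not cover Krt17, which was not tested. Krt14 reached 1 FPKM in the 3 SPI-E2 libraries alone, so the filter on low values fixed its separation.
The log2 difference was 1.42 for Krt15 (SE 0.31, limma adjusted p = 0.28), 1.60 for Krt14 (SE 0.44, adjusted p = 0.48) and 0.45 for Krt13 (SE 0.54, adjusted p = 0.97). Over all genes only 1 was called (0.00973%), with 366 higher and 235 lower at an unadjusted p under 0.05. Without SPI-E2 1 the Krt15 difference was 1.88 and passed (adjusted p = 0.0056), and with weights for each library it was 1.74 (adjusted p = 0.022). Without SPI-E2 3 it was 1.09 (adjusted p = 0.35).
Whether E2 acted differently on the 2 diets was tested as the interaction of diet and E2. No keratin and no other gene was called by limma, with 1362 genes higher and 168 lower at an unadjusted p under 0.05 and a median over all genes of 0.21 (0.01 after median-ratio scaling). Krt14 had the largest interaction of the keratins tested at 1.81 (SE 0.62, adjusted p = 0.23), followed by Krt15 at 1.42 (SE 0.44, adjusted p = 0.20). Krt14 passed the filter on low values through SPI-E2 libraries alone, which favors a positive interaction. Its values here, also those with library weights, are therefore descriptions only. Krt19 gave 0.74, Krt18 0.70, Krt8 0.63 and Krt13 0.38. With library weights Krt14 (2.16, adjusted p = 0.042) and Krt15 (1.65, adjusted p = 0.021) passed, and without SPI-E2 1 Krt15 did (1.87, adjusted p = 0.019).

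**Figure D3:**
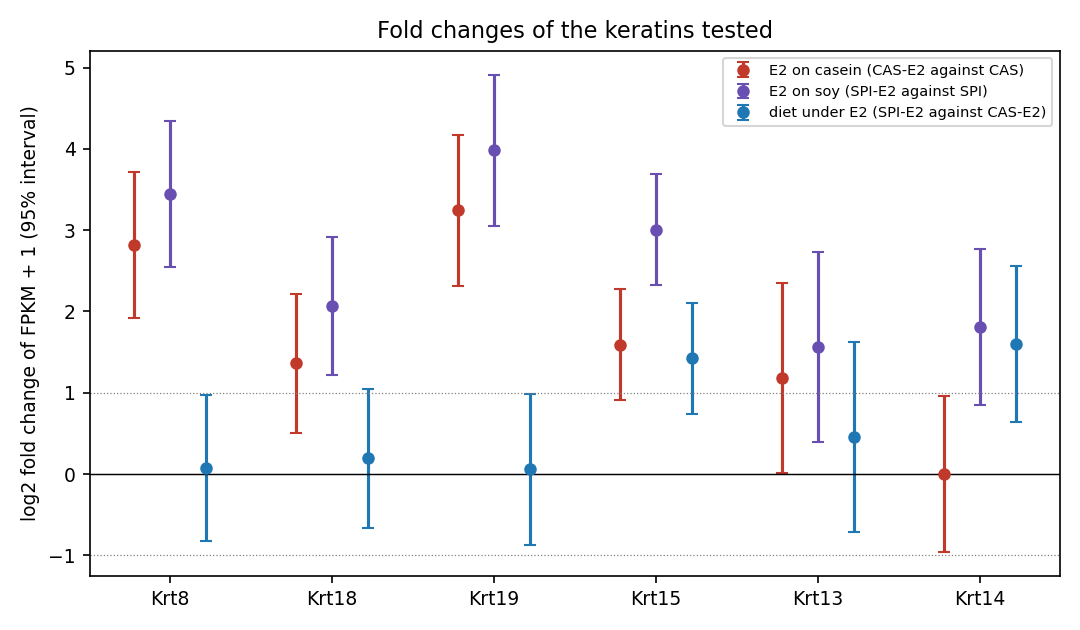
Log2 fold changes of FPKM + 1 for the 6 keratins tested, with 95% intervals from limma, for E2 on casein, E2 on soy and soy against casein under E2. Dotted lines mark a 2-fold change and the solid line no change. The diet difference under E2 lies near 0 for Krt8, Krt18 and Krt19 (0.08, 0.19 and 0.06) and above 1 for Krt15 and Krt14 (1.42 and 1.60).

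The uterus stayed a tissue of simple keratins in all groups. The 3 simple keratins summed to 121, 109 and 120 FPKM in CAS, to 664, 825 and 1166 FPKM in CAS-E2, to 85.0, 67.9 and 75.9 FPKM in SPI and to 375, 1416 and 1401 FPKM in SPI-E2. The 5 stratified keratins summed to 1.22, 0.283 and 1.34 FPKM in CAS, 4.37, 5.59 and 4.98 FPKM in CAS-E2, 0.887, 0.477 and 0.823 FPKM in SPI and 6.06, 15.2 and 33.8 FPKM in SPI-E2. As a percentage of the simple sum, the stratified sum was 0.427% to 0.677% in CAS-E2 and 1.08% to 2.41% in SPI-E2, with no overlap. It was 0.259% to 1.12% in CAS and 0.702% to 1.08% in SPI. SPI-E2 1, whose simple keratins were low, had a stratified share of 1.62%, between those of the other SPI-E2 pools. The sums leave out Krt7 and Krt5, and they are descriptions without a test.
The simple keratins did not rise in proportion. Krt18 was 0.439 to 0.572 of the FPKM of Krt8 in CAS and 0.438 to 0.633 in SPI, but 0.163 to 0.203 in CAS-E2 and 0.174 to 0.224 in SPI-E2. This ratio, between the rows of a single-exon locus and a multi-exon gene, separated the E2 groups from the others on both diets. Krt19 moved the other way, from 1.07 to 1.32 times Krt8 in CAS and 1.00 to 1.15 times in SPI to 1.46 to 1.62 times in CAS-E2 and 1.50 to 1.58 times in SPI-E2.
Relative to Epcam, a surface protein of epithelial cells, Krt8 was higher under E2 as well. The ratio of Krt8 to Epcam was 0.783 to 0.956 in CAS and 0.684 to 0.875 in SPI, and 2.50 to 2.64 in CAS-E2 and 1.92 to 2.99 in SPI-E2. Against Cdh1, the adhesion protein E-cadherin, it went from 2.36 to 2.44 in CAS to 7.04 to 9.17 in CAS-E2, and from 2.17 to 2.95 in SPI to 6.88 to 10.9 in SPI-E2. Against Cldn7, a claudin of tight junctions, it went from 2.70 to 3.05 in CAS to 4.68 to 5.30 in CAS-E2, a 1.73-fold difference of means. On soy it went from 3.58 to 4.02, above all CAS pools, to 4.43 to 5.17, a 1.27-fold difference. Krt18 to Epcam overlapped between all groups, at 0.365 to 0.502 in CAS and 0.408 to 0.524 in CAS-E2. The size of the ratio under E2 differed with the epithelial gene taken as reference.

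**Figure D4:**
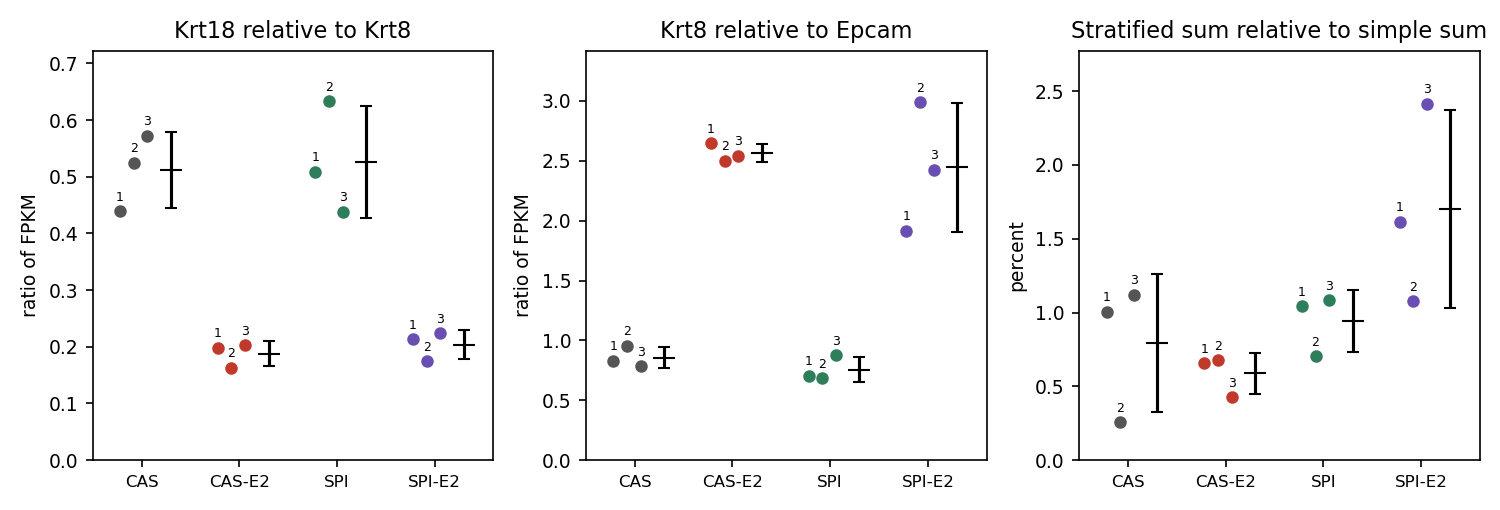
Ratio of Krt18 to Krt8, ratio of Krt8 to Epcam, and the sum of stratified keratins as a percentage of the sum of simple keratins, all from FPKM. Points are pools with replicate number and bars are mean ± SD of 3 pools. The Krt18 ratio is lower and the Epcam ratio higher in both E2 groups, and the stratified percentage of SPI-E2 (1.08% to 2.41%) lies above that of CAS-E2 (0.427% to 0.677%).

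Genes that work with keratins were taken from lists of desmosome, hemidesmosome, cornified envelope and squamous regulator genes. Desmosomes anchor keratin filaments between cells. E2 on casein called 2 of 5 desmosome genes tested higher and 0 lower (list median 0.82), beside 7.99% and 6.37% of all genes (median -0.07). E2 on soy called 3 higher and 0 lower (list median 1.45), beside 8.39% and 1.86% of all genes (median 0.11). Dsc2, a desmosomal cadherin, was at 0.823 to 1.28 FPKM in CAS and 20.1 to 23.0 FPKM in CAS-E2 (log2 fold change 3.42, limma adjusted p = 0.00013). Perp, a desmosomal membrane protein, rose by 2.33 on casein and by 2.94 on soy.
Hemidesmosomes tie basal keratins to the basement membrane. Of 6 such genes tested, 2 were higher and 1 lower with E2 on casein (median 0.22), and 2 higher and 0 lower on soy (median 0.62), beside the same shares of all genes as above. Lamb3, a laminin chain of the epithelial basement membrane, rose by 1.97 on casein. Col17a1, a membrane collagen of hemidesmosomes, was at 2.91 to 5.66 FPKM in CAS and 0.874 to 0.974 FPKM in CAS-E2, and fell by 1.33 on the log2 scale.
Of 7 cornified envelope genes tested, 4 were higher and 0 lower on casein (median 1.20) and 3 higher and 0 lower on soy (median 0.89). The shares of all genes are those given for the lists above. Sprr3, Spink5 and Cst6, which made 3 of the 4 calls on casein and 2 of the 3 on soy, would not have passed the filter on low values without the E2 libraries, so these counts say nothing about the list. Dsc2 among the desmosome genes and Grhl3 among the factors below needed them too. Ppl, the keratin-linking periplakin, was at 3.13 to 4.56 FPKM in CAS and 17.4 to 18.9 FPKM in CAS-E2 (1.95 on the log2 scale). Sprr3, a small proline-rich envelope protein, was listed at 0 in all CAS and SPI pools and at 0.742 to 1.97 FPKM in CAS-E2. Cst6, a protease inhibitor of the epidermis, rose by 1.26 on casein. Ivl (involucrin), named after its values were seen, was listed at 0 in all 12 libraries.
Of 11 transcription factors of squamous or barrier epithelium tested, 4 were higher and 0 lower on casein (median 0.36). On soy 3 were higher and 0 lower (median 0.80). Of all genes, 7.99% were higher and 6.37% lower on casein (median -0.07), and 8.39% and 1.86% on soy (median 0.11). Elf3, an Ets factor of epithelial cells, was at 6.72 to 8.22 FPKM in CAS and 93.0 to 171 FPKM in CAS-E2 (3.89, limma adjusted p = 0.00018). Klf4 rose by 2.19 and Ehf, another epithelial Ets factor, by 1.37. Elf3, Klf4 and Ehf are also made by simple epithelia. Tp63, which defines basal cells of stratified epithelium and was named after its values were seen, did not exceed 0.322 FPKM in any library. Its values were 0.00536 to 0.0147 FPKM in CAS and 0.0705 to 0.322 FPKM in CAS-E2. On soy they overlapped, at 0.0102 to 0.0770 FPKM in SPI and 0.0738 to 0.294 FPKM in SPI-E2. Tp63 stayed under the filter on low values and was not tested. No gene of these 4 lists was called between SPI-E2 and CAS-E2.

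Markers of uterine epithelium moved with the simple keratins. Of 13 tested, E2 on casein called 7 higher and 1 lower (median 1.12), beside 7.99% and 6.37% of all genes. E2 on soy called 11 higher and 0 lower (median 1.79), beside 8.39% and 1.86%. Against CAS, 7 were higher in SPI-E2 and 4 without SPI-E2 3 or 11 without SPI-E2 1. Calls over all genes moved the same way, at 703 higher (6.84%), 535 without SPI-E2 3 and 1035 without SPI-E2 1. The summed level of the markers was 245 to 263 FPKM in CAS, 482 to 780 FPKM in CAS-E2, 140 to 169 FPKM in SPI and 346 to 963 FPKM in SPI-E2. Cldn3 was listed at 0 in all libraries. The gene called lower on casein was Foxa2, a regulator of uterine glands, at 8.18 to 10.9 FPKM in CAS and 1.52 to 2.42 FPKM in CAS-E2. In SPI, 11 of the 13 markers had all pools below all CAS pools, as the simple keratins did and as 30.8% of genes tested did. After median-ratio scaling that share of genes was 11.3%, and the markers were not counted on that scale.
Mesothelium, the outer covering of the uterus, also makes simple keratins. Of its 3 markers tested, 2 were called lower and 0 higher with E2 on casein (1 lower with median-ratio scaling or library weights). With E2 on soy 0 were called. The third marker, Msln, named after its values were seen, differed by 0.47 on the log2 scale on casein and was not called. The 4 mesothelium markers with values summed to 65.4 to 68.2 FPKM in CAS and 24.6 to 41.9 FPKM in CAS-E2. Smooth muscle markers had 0 of 7 called in any comparison (2 higher on casein with library weights). Stroma markers had 2 of 8 lower with E2 on casein (1 with median-ratio scaling or library weights) and 5 of 8 on soy (0 without SPI-E2 3 and 1 without SPI 1). Lower calls over all genes on soy also dropped, from 191 to 62 without SPI-E2 3 and to 127 without SPI 1. Immune markers had 3 of 6 higher on casein and 2 of 6 on soy, and liver markers 0 of 7 called. Of 8 adipose markers, 1 was higher on casein and 1 lower on soy. The adipose count on soy was not stable, at 5 lower with the replicate block, 1 higher and 3 lower without SPI-E2 1, and 1 higher and 0 lower without SPI 1. Of all genes tested, E2 called 7.99% higher and 6.37% lower on casein, and 8.39% higher and 1.86% lower on soy. The part of the marker shifts in the keratin values was not tested.

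The genes whose levels were most like the summed simple keratins over the 12 libraries were Gpa33, a surface protein of gut epithelium (Pearson r = 0.998 on the log2 scale), Smox, spermine oxidase (0.996), and Bspry, a protein with B-box and SPRY domains (0.996). Gpa33 was at 3.36 to 4.50 FPKM in CAS, 31.8 to 51.7 FPKM in CAS-E2, 1.80 to 2.13 FPKM in SPI and 15.1 to 85.1 FPKM in SPI-E2. The pool SPI-E2 1 was the low E2 library for Gpa33 as for Krt8. For the summed stratified keratins they were Lbp, a binding protein for bacterial lipopolysaccharide (0.982), Gclm, a subunit of the enzyme that begins glutathione synthesis (0.963), and Nqo1, a quinone reductase (0.959). Lbp was at 10.5 to 12.2 FPKM in CAS-E2 and 16.1, 36.2 and 59.1 FPKM in SPI-E2 1 to 3, lowest and highest in the same pools as Krt15. The 12 libraries fall apart by E2, which every one of these genes follows, and the values describe likeness only.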

How the data were processed

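Poly-A RNA from 12 pools of uterine RNA was sequenced by the authors as 36-base single reads from a library that does not mark strand. Reads were demultiplexed with CASAVA 1.7, aligned to rn4 with TopHat2 2.0.9 and Bowtie2 2.1.0, and quantified with Cufflinks 2.1.1, as the submitters' processing notes and the paper's methods state. The deposited files give an FPKM value for each annotated transcript, scaled by the authors to mapped reads, and no read counts. From these, FPKM was summed over the transcripts of each gene symbol with Python 3.11.15 and pandas 2.3.3. Depth was taken from the ratio of coverage to FPKM and reads per gene from coverage, exon length and the read length. Counting error alone limits values of a few reads.

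Genes that reached 1 FPKM in 3 or more libraries were tested with limma 3.58.1 (R 4.3.3, moderated by a variance trend) on log2(FPKM + 1), in 1 fit of all 12 libraries without covariates. P-values were adjusted by Benjamini-Hochberg over the 10279 genes tested and were two-sided. The paper's Cuffdiff test needs reads and was not repeated. The fit was tested on simulated data. Groups and replicate numbers came from the sample labels. Same-numbered pools of CAS-E2 and SPI-E2 deviated together, with correlations of 0.117 to 0.336 of their deviations from the group means. Other pairs of groups gave -0.263 to 0.153. No label pairs the pools and these ranges overlap, so a pairing was not established.

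The keratins and all gene lists were chosen with earlier results of these data known. All keratins are named. Of each companion list, the called genes with the 3 smallest adjusted p in each direction in CAS-E2 against CAS are named, of each marker list the 2 genes with the highest mean (given where a result turns on them), and of genes like each class the 3 highest correlations. A gene that this rule would name is not reported here. Alternatives were other pseudocounts (0.5 and 0.1), no filter or a minimum of 5 FPKM, median-ratio scaling, no variance trend, library weights, the adjusted p alone, only the 2 groups compared, the highest transcript, a replicate block, and leaving out each library. Fits without a library, or of only 2 groups, kept the genes that passed the filter in all 12 libraries. Counts of the other lists under some of these alternatives were added after seeing the data. Promoter sequences are RefSeq's, of GRCr8, and coordinates of loci are those of the files, in rn4.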

Additional observations from a re-analysis of the deposited data

How the results depend on the processing

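Krt8, Krt19 and Krt15 kept their direction and their calls in the 3 comparisons of an E2 group with a group without E2, under every alternative that could test them. A minimum of 5 FPKM removed Krt13, Krt14 and Krt15, which left 3 keratins called in SPI-E2 against CAS and 3 in SPI-E2 against SPI, where 6 had been called in each. Over all genes that minimum gave 841 calls in place of 1103 and 844 in place of 1053. Krt13, Krt14 and Krt15 passed the main filter through E2 libraries alone, so the counts of keratins here say nothing about the class. Leaving out single libraries gave 3 to 5 keratins in CAS-E2 against CAS, 3 to 6 in SPI-E2 against CAS, 5 to 6 in SPI-E2 against SPI, 0 to 1 in SPI-E2 against CAS-E2, 0 to 1 in the interaction and 0 in SPI against CAS. Over all genes the same fits gave 1362 to 1629 calls in CAS-E2 against CAS, 707 to 1783 in SPI-E2 against CAS and 673 to 1740 in SPI-E2 against SPI. With library weights 1 keratin was called in SPI-E2 against CAS-E2 and 2 in the interaction. Median-ratio scaling gave a mean simple sum of 108.8 FPKM in CAS in place of 116.7.

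Directions that turned were all of differences not called. Krt14 in CAS-E2 against CAS was -0.16 without CAS 2, -0.02 without CAS-E2 1 and -0.08 without CAS-E2 3 (-0.16 to 0.15 over all libraries left out). In SPI-E2 against CAS-E2, leaving out CAS-E2 1, SPI-E2 2 or SPI-E2 3 gave -0.09, -0.25 or -0.22 for Krt8 and -0.15, -0.27 or -0.26 for Krt19. Krt18 was -0.02 when SPI-E2 2 and -0.17 when SPI-E2 3 was left out. Without SPI-E2 3, Krt13 was -0.28 in SPI-E2 against CAS-E2 and -0.35 in the interaction (up to 1.20 and 1.13 without SPI-E2 1). In SPI against CAS, leaving out CAS 2 or SPI 1 gave -0.018 or -0.068 for Krt13 (up to 0.20), and leaving out CAS 1, CAS 2 or SPI 2 gave -0.028, -0.067 or -0.036 for Krt15 (up to 0.11). In SPI-E2 against CAS-E2 without SPI-E2 1, Krt8, Krt19 and Krt18 reached 0.70, 0.70 and 0.77, the highest values of leaving out a library. The cause was not tested.

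With the replicate block, 4 keratins were called in CAS-E2 against CAS, 6 in SPI-E2 against CAS and 5 in SPI-E2 against SPI (Krt13, limma adjusted p = 0.058). In the other comparisons 0 were called, also with only the CAS-E2 and SPI-E2 libraries fitted. The block changed no other call of a keratin. Over all genes, calls ranged from 1061 to 4018 in CAS-E2 against CAS, 707 to 3016 in SPI-E2 against CAS, 673 to 2840 in SPI-E2 against SPI, 0 to 59 in SPI against CAS, 0 to 5 in SPI-E2 against CAS-E2 and 0 to 170 in the interaction. Depth limits Krt4, Krt13, Krt14 and Krt17, which rest on under 10 reads in most libraries.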

Other observations

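Other keratins gave low values, and the genes named here were chosen after their values were seen, except Krt75. Of 42 other keratins listed, 33 had values, 5 of them at 0 in all libraries, and 4 were tested. Krt75, a type II chain of hair follicles, was called higher with E2 on both diets, at 0 to 0.265 FPKM in CAS, 0.726 to 3.88 FPKM in CAS-E2, 0.0679 to 0.432 FPKM in SPI and 1.37 to 3.82 FPKM in SPI-E2. Its log2 fold change was 1.60 on casein and 1.62 on soy (adjusted p = 0.0063 and 0.0090 from limma). It passed the filter on low values through E2 libraries alone, which fixed this direction. CAS-E2 3 had much less Krt75 (0.726 FPKM) than CAS-E2 1 and 2 (3.39 and 3.88 FPKM), although its simple keratins were the highest of that group. Krt20, a type I chain of gut and urothelium, was listed at 0 in all CAS and SPI pools and in CAS-E2 3, and CAS-E2 1 and 2 had 1.49 and 0.690 FPKM and the SPI-E2 pools 0.131 to 0.463 FPKM.

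SPI-E2 3, the pool with the highest Krt13 and Krt14, was also the highest of the 12 libraries for Krt10, Krt16 and Krt76, but not for Krt1 or Krt2. It had 2.53 FPKM of Krt10, the type I chain of suprabasal epidermis, against 0.299 to 1.46 FPKM in the other libraries. It had 2.57 FPKM of Krt16, a type I chain of activated epidermis, where no other library exceeded 0.652 FPKM. Krt76 was at 1.27 FPKM there and at most 0.400 FPKM elsewhere, while Krt1, the partner of Krt10, was at 0.0661 FPKM, within the range of the other libraries. Krt2, a type II chain of upper epidermis, was at 0.0784 FPKM there, below SPI-E2 2 (0.610 FPKM) and CAS-E2 3 (0.516 FPKM). Spink5, a protease inhibitor of stratified epithelium, was at 4.82 FPKM in that pool and at 1.78 and 1.68 FPKM in SPI-E2 1 and 2.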
